A study of Mus musculus with 6 samples.

Results

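A group of bile acid genes was followed through RNA sequencing of mouse primary hepatocytes from control mice and from mice with deletion of *Sucnr1*, the succinate receptor gene, directed to hepatocytes. The 10 genes, fixed by name, were 10 of the 25184 genes in the table of read counts. They were *Cyp7a1*, *Cyp8b1*, *Cyp27a1* and *Cyp7b1*, which encode enzymes of synthesis, *Slc27a5* and *Baat* of conjugation, the receptor gene *Nr1h4* with its target *Nr0b2*, and the bile salt transporter genes *Slc10a1* and *Abcb11*. Both genotypes carried floxed *Sucnr1* alleles with loxP sites on either side of exon 2. Control mice, called *Sucnr1* fl/fl, lacked Cre (*Alb-Cre* -/-), whereas Hep-*Sucnr1* KO mice carried 1 copy of a Cre transgene under the albumin promoter (*Alb-Cre* +/-), from a line on a C57BL6J background. Each genotype was represented by 3 libraries (*Sucnr1* fl/fl replicates 1, 2 and 3, and Hep-*Sucnr1* KO replicates 3, 4 and 5). The mice ate chow, and the hepatocytes of the left lateral lobe were held overnight on collagen in medium with high glucose and serum. They were therefore cultured cells, away from bile flow and from the gut. Age and sex of these mice are not given in the sources used here. No source used here states that each library came from a separate mouse, so the p-values measure the spread between these libraries.

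Hepatocytes turn cholesterol into bile acids. The classic route opens with CYP7A1, the rate-limiting enzyme, and CYP8B1 adds the hydroxyl group that makes cholic acid. The alternative route runs through the mitochondrial CYP27A1 and then CYP7B1. SLC27A5 activates bile acids with coenzyme A and BAAT joins them to taurine or glycine. NTCP, the product of *Slc10a1*, takes up bile salts from blood, and BSEP, the product of *Abcb11*, exports them into bile. The nuclear receptor FXR, encoded by *Nr1h4*, senses bile acids and induces *Abcb11* and *Nr0b2*. The latter encodes SHP, a repressor of *Cyp7a1* and *Cyp8b1*.

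The promoters of 3 members are shown because *Abcb11* and *Nr0b2* are classic targets of FXR while *Cyp8b1* belongs to the enzymes under feedback, and their transcripts differed in how much they varied between libraries. Each run is the 250 bases before the gene start in RefSeq on GRCm38.p6, read 5′ to 3′ on the strand of the gene, with matches to the searched motifs in capitals. The windows are chr2:69342617-69342866 (minus strand) for *Abcb11*, chr4:133553126-133553375 (plus strand) for *Nr0b2* and chr9:121916306-121916555 (minus strand) for *Cyp8b1*.
Abcb11: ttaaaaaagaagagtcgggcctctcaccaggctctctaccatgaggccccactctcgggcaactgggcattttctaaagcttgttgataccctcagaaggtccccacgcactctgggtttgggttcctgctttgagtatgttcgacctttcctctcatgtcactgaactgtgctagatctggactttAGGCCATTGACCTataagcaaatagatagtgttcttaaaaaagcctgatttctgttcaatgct
Nr0b2: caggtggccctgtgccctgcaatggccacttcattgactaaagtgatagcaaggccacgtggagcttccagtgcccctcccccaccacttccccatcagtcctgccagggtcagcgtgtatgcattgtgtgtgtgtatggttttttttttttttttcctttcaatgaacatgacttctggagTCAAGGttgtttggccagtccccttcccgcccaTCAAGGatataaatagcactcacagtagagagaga
Cyp8b1: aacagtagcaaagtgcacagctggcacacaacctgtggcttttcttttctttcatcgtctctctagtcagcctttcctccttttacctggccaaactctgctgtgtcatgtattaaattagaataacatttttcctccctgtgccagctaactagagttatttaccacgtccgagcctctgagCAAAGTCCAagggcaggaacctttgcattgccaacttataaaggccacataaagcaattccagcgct
The motifs were picked with these windows in view and searched on both strands of 32851 windows of this length. The *Abcb11* window held AGGCCATTGACCT from 63 bases before the start. This is a match to AGGNCA and TGACCT with 1 base between them, an inverted repeat of nuclear receptor half-sites, the arrangement that FXR is known to bind. That motif was found in 0.0335% of all windows, and the half-site AGGTCA, which overlaps its right part on the other strand, in 14%. The *Nr0b2* window held TCAAGG, the core of the site of the nuclear receptor LRH-1, at 68 and at 35 bases before the start, and 12.5% of all windows held these letters. *Cyp8b1* carried CAAAGTCCA, letters of an HNF4 site, at 67 bases before the start, found in 0.384% of windows. The *Nr0b2* window held neither AGGTCA nor the inverted repeat. Windows were also listed for *Cyp27a1*, *Nr1h4* and *Slc10a1*, and none for *Cyp7a1*, *Cyp7b1*, *Baat* and *Slc27a5*. AGGTCA also matched in the window of *Nr1h4* and in a window of *Slc10a1*. These matches are letters only, and binding was not measured.

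The libraries held between 30504248 and 38770694 counts. Values are given as CPM, the counts scaled to a common library size with TMM factors, which adjust for library composition. *Sucnr1* was at 6.71, 3.55 and 3.39 CPM in *Sucnr1* fl/fl replicates 1, 2 and 3, and at 2.66, 0.827 and 0.152 CPM in Hep-*Sucnr1* KO replicates 3, 4 and 5, so the genotypes did not overlap. The library of Hep-*Sucnr1* KO replicate 3 kept 84 counts and lay close to control replicates 2 and 3, which were extracted on day 2. This KO library was extracted on day 1, as was control replicate 1, the control with the highest *Sucnr1*. Counts over the whole gene do not isolate the deleted exon. Hepatocyte markers were abundant, with 7 of 7 in the table and a summed level of 58296 to 92794 CPM. The 7 cholangiocyte markers summed to 353 to 515 CPM in *Sucnr1* fl/fl and to 430 to 653 CPM in Hep-*Sucnr1* KO. *Spp1* (266 to 526 CPM) and *Sox9* (83.1 to 122 CPM) carried most of this sum, while *Krt7* had at most 10 counts and *Krt19* at most 27 in any library. The summed level of 7 Kupffer cell markers lay at 24.0 to 86.9 CPM in *Sucnr1* fl/fl and at 4.49 to 75.4 CPM in Hep-*Sucnr1* KO. In such bulk samples fewer cells of a type and less RNA per cell cannot be told apart.

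None of the 10 genes passed the test between genotypes. All 10 passed the filter on low counts, and in edgeR's quasi-likelihood test with extraction day in the model 0 of 10 had an FDR below 0.05, against 0.0% of the 15105 genes tested. At an unadjusted p below 0.05 the count was again 0 of 10, beside 3.72% (562) of all genes, and DESeq2 called 7 genes at its own FDR, none of them among the 10. The lowest FDR of any gene in the edgeR test was 0.998, so *Sucnr1*, the deleted gene, was not called by it either. The lack of a call for the 10 therefore does not show that they were unchanged. The CPM of the genotypes overlapped for each of the 10, whereas 10.6% of all genes had groups that did not overlap. Log2 fold changes, given throughout for Hep-*Sucnr1* KO against *Sucnr1* fl/fl, were above 0 for 7 genes and below 0 for 3. Their median was 0.16, against 0.003 over all genes tested. That median rested on Hep-*Sucnr1* KO replicate 4, without which it was -0.026.

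**Figure D1:**
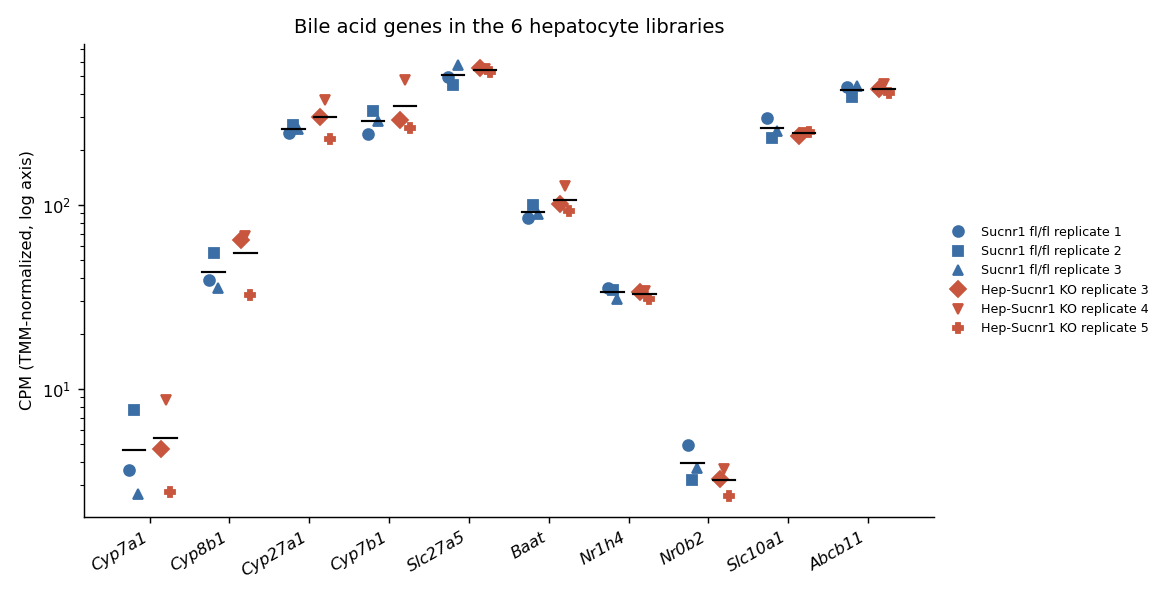
CPM (log axis) of the 10 bile acid genes, 1 symbol per library, blue for *Sucnr1* fl/fl and red for Hep-*Sucnr1* KO, with black lines at the group means. The genotypes overlap for every gene, and *Cyp7a1* spans 2.703 to 8.74 CPM while *Abcb11* lies within 388 to 454 CPM.

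*Cyp7a1* (ENSMUSG00000028240, chromosome 4, 6265612 to 6275633) was scarce and variable in both genotypes. It was at 3.64, 7.70 and 2.703 CPM in *Sucnr1* fl/fl replicates 1, 2 and 3, and at 4.71, 8.74 and 2.76 CPM in Hep-*Sucnr1* KO replicates 3, 4 and 5. Each genotype thus held 1 library with a high level and 1 with a low level, and the within-genotype range was wider than the gap between the means, which were 4.68 ± 2.65 CPM in the controls and 5.41 ± 3.05 CPM in the KO group (SD, n = 3). The estimate was 0.22 ± 0.51 (log2, SE, edgeR adjusted p = 0.998), and its 95% interval ran from a fold of 0.505 to one of 2.68. Leaving out Hep-*Sucnr1* KO replicate 4 turned the estimate to -0.34, and leaving out *Sucnr1* fl/fl replicate 3 turned it to -0.095, while it was 0.77 without *Sucnr1* fl/fl replicate 2 and 0.59 without Hep-*Sucnr1* KO replicate 5. *Sucnr1* fl/fl replicates 1 and 2 carried library indices 39 and 40 and the other 4 libraries 85 to 88, and with this index series as a further term the estimate was 1.21, with an adjusted p near 1.

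*Cyp8b1* (ENSMUSG00000050445, a single-exon gene on chromosome 9) was at 39.003, 55.1 and 35.3 CPM in *Sucnr1* fl/fl and at 64.2, 67.6 and 32.4 CPM in Hep-*Sucnr1* KO, in the same order of replicates. In the KO group 2 libraries lay above all controls, and the remaining one, replicate 5, was the lowest of the 6. Its log2 fold change of 0.34 ± 0.31 (SE) did not pass the test (edgeR adjusted p = 0.998). It was 0.050 without Hep-*Sucnr1* KO replicate 4 and 0.64 without replicate 5. On extraction day 1, with 1 library of each genotype, the difference in log2 CPM was 0.72, and on day 2, with 2 of each, it was 0.084. The interaction of genotype and day was not called for it (edgeR adjusted p = 1.00), nor for any of the 10 at an unadjusted p below 0.05, beside 3.69% of all genes.

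*Cyp27a1* (ENSMUSG00000026170, chromosome 1) was at 248, 271 and 260 CPM in the controls, a narrow range, and at 302, 374 and 228 CPM in the KO libraries. *Cyp7b1* (ENSMUSG00000039519, chromosome 3) was at 244, 326 and 285 CPM in the controls and at 291, 479 and 261 CPM in the KO libraries. For both enzymes of the alternative route Hep-*Sucnr1* KO replicate 4 held the highest value. Replicate 5 was the lowest library for *Cyp27a1*, and the remaining KO values of *Cyp7b1* lay within the control range. The log2 fold changes were 0.21 ± 0.19 for *Cyp27a1* and 0.27 ± 0.23 for *Cyp7b1* (SE, edgeR adjusted p = 0.998 for each). Without Hep-*Sucnr1* KO replicate 4 they were -0.00165 and -0.018, and without replicate 5 they were 0.40 and 0.48.

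Over the 6 libraries the conjugation enzymes were steadier than those of synthesis, *Baat* by little. Among the controls alone *Cyp27a1* varied less than either. *Slc27a5* (ENSMUSG00000030382, chromosome 7), the bile acid CoA ligase, was at 496, 448 and 573 CPM in the controls and at 555, 549 and 527 CPM in the KO libraries, which lay inside the control range. Its log2 fold change was 0.11 ± 0.14 (SE, edgeR adjusted p = 0.998), between 0.017 without *Sucnr1* fl/fl replicate 2 and 0.22 without *Sucnr1* fl/fl replicate 3. *Baat* (ENSMUSG00000039653, chromosome 4) was at 85.3, 100.3 and 89.8 CPM in the controls and at 100.9, 126 and 92.5 CPM in the KO libraries. For *Baat* 2 of the 3 KO libraries were above all controls, the log2 fold change was 0.22 ± 0.14 (SE, edgeR adjusted p = 0.998), and its two-sided exact permutation p of 0.2 was the lowest among the 10. The estimate for *Baat* was 0.083 without Hep-*Sucnr1* KO replicate 4 and 0.34 without replicate 5. After Benjamini-Hochberg adjustment over the 10 genes the exact p-values were 0.667 to 0.8, and 3 libraries against 3 cannot give a p below 0.1.

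*Nr1h4* (ENSMUSG00000047638, chromosome 10), the FXR gene, was among the least variable members. It was at 35.4, 34.7 and 31.0 CPM in the controls and at 33.6, 34.3 and 30.8 CPM in the KO libraries, and the ranges nearly coincided. The log2 fold change was -0.033, with a 95% interval from -0.29 to 0.22. *Nr0b2* (ENSMUSG00000037583, chromosome 4), its target and the SHP gene, was as scarce as *Cyp7a1* by CPM, at 4.99, 3.19 and 3.72 in the controls and at 3.23, 3.69 and 2.64 in the KO libraries. The KO values were lower on average, but only replicate 5 lay under all controls. The log2 fold change of *Nr0b2* was -0.30 ± 0.23 (SE, edgeR adjusted p = 0.998), and it stayed below 0 under each of the 15 alternatives run, between -0.49 (without Hep-*Sucnr1* KO replicate 4) and -0.13 (without *Sucnr1* fl/fl replicate 1).

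*Slc10a1* (ENSMUSG00000021135, chromosome 12) was at 298, 233 and 253 CPM in the controls and at 238, 247 and 249.03 CPM in the KO libraries. *Abcb11* (ENSMUSG00000027048, chromosome 2) was at 436, 388 and 444 CPM in the controls and at 425, 454 and 407 CPM in the KO libraries. Both transporter genes kept to a narrow range, in which the highest library exceeded the lowest 1.28 times for *Slc10a1* and 1.17 times for *Abcb11*. The log2 fold changes were -0.087 (95% interval -0.39 to 0.22) for *Slc10a1* and 0.020 (-0.29 to 0.33) for *Abcb11*. Intervals of *Nr1h4*, *Slc10a1*, *Abcb11*, *Baat* and *Slc27a5* (5 of 10) left out a 1.5-fold change in either direction, and those of 8 of 10 left out a 2-fold change, the exceptions being *Cyp7a1* and *Cyp8b1*.

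**Figure D2:**
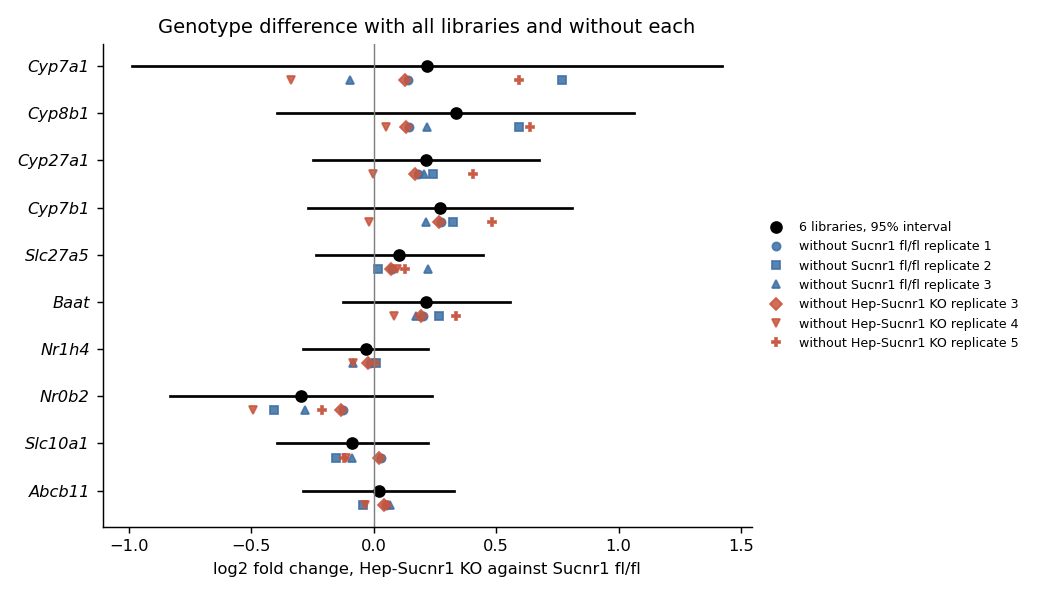
Genotype difference of the 10 genes as a log2 fold change (x axis, above 0 for higher in Hep-*Sucnr1* KO), with the estimate and 95% interval from all 6 libraries in black and the estimates without each library as colored symbols below. Each black interval spans 0, and for *Cyp7a1* the estimates without 1 library run from -0.34 to 0.77.

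The members differed in their spread between libraries. The SD of log2 CPM over the 6 libraries was 0.72 for *Cyp7a1*, 0.46 for *Cyp8b1*, 0.35 for *Cyp7b1*, 0.30 for *Nr0b2*, 0.25 for *Cyp27a1* and 0.20 for *Baat*. It was 0.13 for *Slc27a5*, 0.13 for *Slc10a1*, 0.086 for *Nr1h4* and 0.085 for *Abcb11*. Counting alone would give an SD of 0.12 for *Cyp7a1* and 0.13 for *Nr0b2*, whose counts were 82 to 296 and 87 to 192 per library, and at most 0.043 for the other 8 genes. The spread of *Cyp7a1* was thus several times that of counting.

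The synthesis enzymes and *Baat* were highest in the same library of each genotype. Hep-*Sucnr1* KO replicate 4 held the highest value of *Cyp7a1*, *Cyp8b1*, *Cyp27a1*, *Cyp7b1* and *Baat*, and *Sucnr1* fl/fl replicate 2 the highest control value of these 5. *Abcb11* was also highest in Hep-*Sucnr1* KO replicate 4, within its narrow range, but its highest control was replicate 3. How many of all genes were highest in that KO library was not counted, so a trait particular to these enzymes is not shown. Likeness was measured as the root mean square difference of log2 CPM centred on each gene's mean over the 6 libraries, which share their depth and normalization between genes. *Cyp27a1* and *Baat* were each other's nearest member (0.097), *Cyp7b1* (0.15) and *Cyp8b1* (0.25) were nearest to *Cyp27a1*, and *Cyp7a1* to *Cyp8b1* (0.35). Among the flatter genes, *Abcb11* and *Slc27a5* were nearest to each other (0.081), *Nr1h4* (0.11) and *Slc10a1* (0.11) to *Abcb11*, and *Nr0b2* to *Slc10a1* (0.20). The root mean square of their own centred values was 0.078 for *Nr1h4* and 0.077 for *Abcb11*, below these differences. For these flat genes nearness therefore does not show a shared profile. Over all genes tested, the 5 profiles nearest to that of *Cyp7a1* belonged to *Ugt1a10* (0.14), *Gm26616* (0.15), *Npr2* (0.20), *Podn* (0.22) and *AC121973.1* (0.22). Of these only *Npr2*, a natriuretic peptide receptor gene, was above 1 CPM on average (17.0 CPM).

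The library with the highest bile acid enzymes was also the highest for *Hnf4a* and for pericentral landmarks, but not for hepatocyte markers as a set. The 7 hepatocyte markers summed to 58296 CPM in Hep-*Sucnr1* KO replicate 4, the lowest sum of the 6 libraries. *Alb* carried most of this sum, at 37109 CPM, its own lowest value of the 6 libraries. The study lists *Alb* among its periportal genes, so the sum is not separate from zonal position. Hep-*Sucnr1* KO replicate 4 was the highest for 1 of the 7, *Hnf4a*, and the lowest for 3. Among the controls, *Sucnr1* fl/fl replicate 2 held the lowest sum, 66833 CPM. *Hnf4a*, the hepatocyte transcription factor gene, was at 176, 252 and 182 CPM in the controls and at 228, 313 and 152 CPM in the KO libraries, again highest in replicates 2 and 4 of their groups. Hep-*Sucnr1* KO replicate 4 also held the highest value of 6 of 6 pericentral landmark genes. Their summed level was 5286 CPM there, 1294 CPM in Hep-*Sucnr1* KO replicate 5, 2125 CPM in Hep-*Sucnr1* KO replicate 3, and 1981 to 3053 CPM in the controls, with replicate 2 the highest control. *Cyp2e1* carried much of this sum, and *Sucnr1* fl/fl replicate 2 was the highest control for 4 of the 6 landmarks and replicate 3 for *Oat* and *Slc1a2*. The 6 periportal landmarks summed to 3041 CPM in Hep-*Sucnr1* KO replicate 4 and 3170 CPM in *Sucnr1* fl/fl replicate 2, and to between 4055 and 5016 CPM elsewhere. The part of zonal position in the profile of the bile acid enzymes was not tested.

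**Figure D3:**
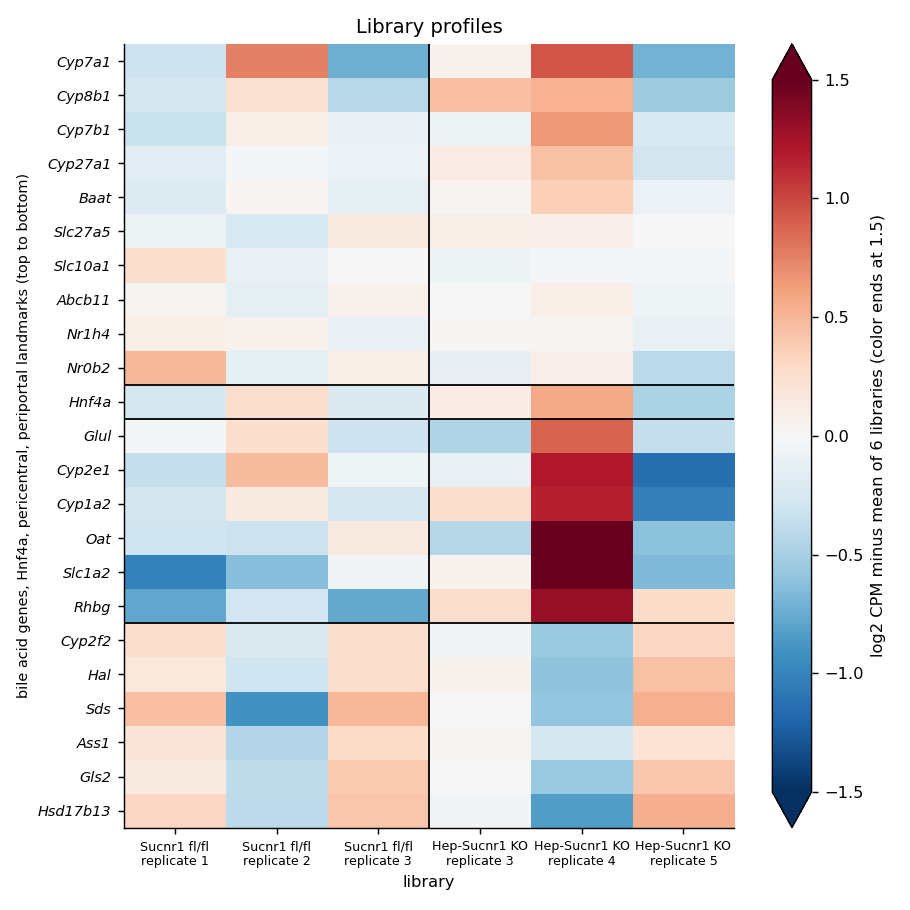
Log2 CPM of each gene less its own 6-library mean, red for above and blue for below, with libraries as columns and, from the top, the 10 bile acid genes, *Hnf4a*, 6 pericentral and 6 periportal landmarks as rows. *Cyp7a1*, *Cyp8b1*, *Cyp7b1*, *Cyp27a1*, *Baat* and, within its narrow range, *Abcb11* are all highest in Hep-*Sucnr1* KO replicate 4. That library also holds the highest value of each pericentral landmark.

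For extraction day 0 of the 10 had an unadjusted p below 0.05, beside 7.49% of all genes, and 0 of the 15105 genes had an FDR below 0.05. DESeq2 called 220 genes for day. The estimate of day 2 against day 1 was 0.40 for *Cyp7a1* and 0.34 for *Cyp7b1*, the latter with the lowest p of the 10 (edgeR adjusted p = 0.891).

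Balance between pathways was examined with log2 ratios of CPM taken within each library. *Cyp7a1* to *Cyp27a1*, the entry enzymes of the classic and the alternative route, gave a mean of -5.92 ± 0.73 in the controls and -5.91 ± 0.47 in the KO libraries (SD, 3 libraries each). *Cyp8b1* to *Cyp7a1* gave 3.30 ± 0.43 and 3.40 ± 0.42. *Cyp7b1* to *Cyp27a1* gave 0.12 ± 0.14 and 0.17 ± 0.21. These 3 ratios between enzymes differed by 0.0078 to 0.10 between genotypes, less than their SDs. *Slc10a1* to *Abcb11*, uptake against export, gave -0.70 ± 0.13 and -0.81 ± 0.09. *Cyp7a1* to *Nr0b2*, the enzyme against its repressor, gave 0.12 ± 0.99 and 0.61 ± 0.59. None of the 5 passed, with two-sided exact permutation p-values of 0.4 to 1.0 and 1.0 each after Benjamini-Hochberg adjustment over the 5.

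Levels can be compared between genes only per length, and were taken as CPM per kilobase of exon. *Slc27a5* stood first at 215 ± 18.9 (SD, n = 6), followed by *Cyp7b1* at 145 ± 39.5, *Cyp27a1* at 129 ± 24.0 and *Slc10a1* at 115 ± 10.51. Neighbours among these first 4 had overlapping ranges over the 6 libraries. Compared within libraries, *Slc27a5* was above *Cyp7b1* in each of the 6, *Cyp7b1* above *Cyp27a1* in 4, and *Cyp27a1* above *Slc10a1* in 4. *Abcb11* at 82.7 ± 4.79, *Baat* at 51.1 ± 7.50, *Cyp8b1* at 25.1 ± 7.88, *Nr1h4* at 14.5 ± 0.848, *Nr0b2* at 3.16 ± 0.706 and *Cyp7a1* at 1.21 ± 0.620 followed, and no library of one reached a library of the next. *Cyp7b1* transcripts exceeded those of *Cyp7a1* per length by 81.6 to 204 times within a library, and those of *Cyp27a1* exceeded them by 67.7 to 185 times. With the length of the longest transcript in place of all exons, *Cyp27a1* moved ahead of *Cyp7b1*, and *Cyp8b1* and *Nr1h4* overlapped. A small nuclear RNA gene lies on the same strand within the *Cyp7b1* locus, and reads shared by both are uncertain.

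**Figure D4:**
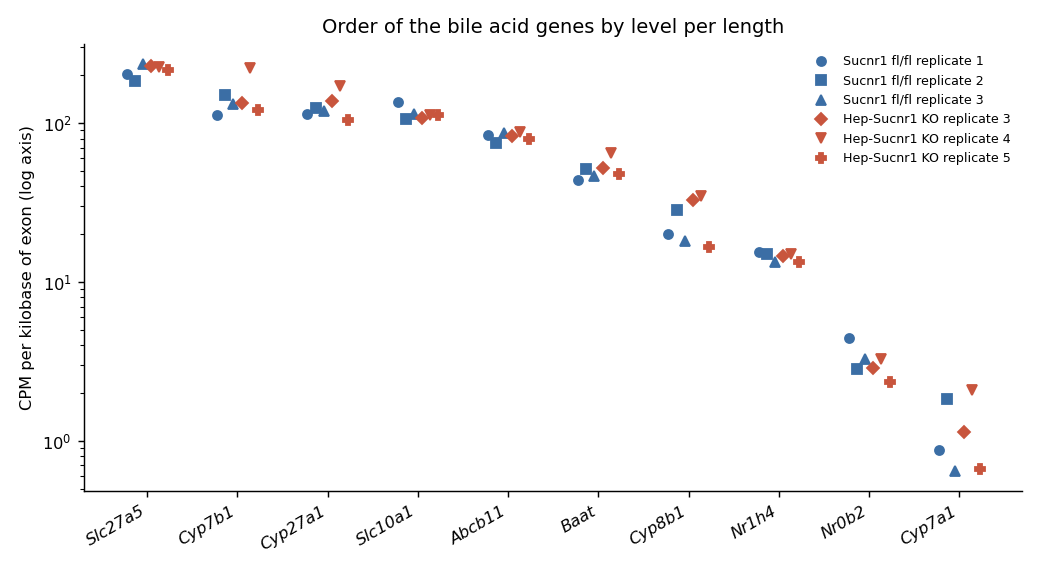
CPM per kilobase of exon (log axis) of the 10 genes in descending order of the mean, 1 symbol per library, blue for *Sucnr1* fl/fl and red for Hep-*Sucnr1* KO. *Cyp7a1*, at a mean of 1.21, lies below all other members in every library, and neighbours among the first 4 genes overlap.

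Genes around the 10 were taken from 4 lists with 43 genes, of which 39 were tested. None had an FDR below 0.05, and 3 had an unadjusted p below 0.05, all with estimates below 0, beside 3.72% over all genes. The groups did not overlap for 6 of the 39, beside 10.6%. Estimates were above 0 for 17 and below 0 for 22, with a median of -0.087. *Gpbar1*, *Fgf15* and *Slc51a* had no count listed, so they stayed untested, as did *Apoc2* with at most 2 counts, a gene that overlaps another on its strand.

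Among 14 further enzymes of synthesis, 10 were higher and 4 lower, with a median of 0.098 and none at an unadjusted p below 0.05. *Cyp2c70*, which makes the muricholic acids of mice, had the highest estimate at 0.27. *Ch25h*, the cholesterol 25-hydroxylase, had the lowest at -0.36 and differed by 1.84 (log2) between day 2 and day 1, with an unadjusted edgeR p of 0.00497 and an adjusted p = 0.484.

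Of 12 genes of feedback and regulation 10 were tested, 3 higher and 7 lower, with a median of -0.16. *Ppargc1a*, the coactivator PGC-1α, was at 4.08, 2.74 and 2.90 CPM in the controls and at 2.09, 1.56 and 2.52 CPM in the KO libraries. Its groups did not overlap, but its log2 fold change of -0.63 ± 0.26 (SE) had an unadjusted edgeR p of 0.0445 and an adjusted p = 0.998. *Hnf4a* had the highest estimate of this list, 0.19. *Fgfr4* and *Klb*, the hepatocyte receptor and coreceptor of intestinal FGF15, were at -0.18 ± 0.16 and -0.57 ± 0.24 (SE, edgeR adjusted p = 0.998 for each). The groups overlapped for both, and *Klb* was lowest of the 6 libraries in *Sucnr1* fl/fl replicate 3, at 10.4 CPM.

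Of 8 FXR targets outside the 10, 6 were tested, 3 higher and 3 lower, with a median of -0.014. *Slc51b*, for a subunit of the basolateral bile acid exporter, had the highest estimate, 0.64 ± 0.48 (SE), and *Pltp*, the phospholipid transfer protein, the lowest, -0.23. *Sdc1*, a heparan sulfate proteoglycan, differed by -0.39 (log2) between day 2 and day 1, with an unadjusted edgeR p of 0.0493 and an adjusted p = 0.664.

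Of 13 transport genes 12 were tested, 3 higher and 9 lower, with a median of -0.25. *Abcg5* and *Abcg8*, which together form the exporter of cholesterol into bile, both passed at an unadjusted p below 0.05, as did *Ppargc1a* above, and none of the 3 after adjustment. *Abcg5* was at 19.8, 22.5 and 24.1 CPM in the controls and at 14.4, 19.8 and 19.8 CPM in the KO libraries, with a log2 fold change of -0.31 ± 0.11 (SE), an unadjusted edgeR p of 0.0265 and an adjusted p = 0.998. *Abcg8* was at 22.8, 25.3 and 22.7 CPM in the controls and at 17.2, 22.2 and 15.9 CPM in the KO libraries, with -0.36 ± 0.15 (SE), an unadjusted edgeR p of 0.0495 and an adjusted p = 0.998. No KO library reached the lowest control for either gene, by a very small margin for *Abcg5*. The 2 genes lie head to head and overlap on opposite strands, and the counting used strand. With each library left out, the estimates ran from -0.36 to -0.24 for *Abcg5*, from -0.51 to -0.24 for *Abcg8* and from -0.90 to -0.47 for *Ppargc1a*, and the unadjusted p was 0.05 or more in 5 of 6 such fits for each gene. It was also above 0.05 for all 3 genes with a term for index series and with day 2 alone, for *Abcg5* without the day term, and for *Abcg8* with DESeq2, with library size alone and with edgeR's own filter. *Abcg5* also differed by 0.35 (log2) between day 2 and day 1, with an unadjusted edgeR p of 0.0234 and an adjusted p = 0.553. *Abcc4*, a basolateral exporter, had the lowest estimate of the list at -0.48.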

How the data were processed

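RNA was sequenced from 6 libraries of primary hepatocytes. Per the labels and the study's methods, the authors trimmed stranded read pairs with Trim Galore 0.6.7, aligned them to GRCm38 with STAR 2.7.10a and counted pairs per gene with featureCounts, using strand. The deposited values are these raw counts, with no normalization. At 1 CPM a gene had at least 30.3 counts, so mostly the spread between libraries set the precision.

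A gene entered the tests if its DESeq2-normalized count averaged more than 5. The genotype was tested with edgeR 4.0.16 (R 4.3.3; quasi-likelihood, TMM factors) with extraction day in the model, and FDR is the Benjamini-Hochberg adjusted p over all 15105 genes (threshold 0.05). Log2 CPM used a prior count of 2, and intervals are 95%. Exact permutation tests used SciPy 1.17.1. Alternatives were DESeq2 1.42.0, other scalings, filters and model terms, a robust fit, other prior counts and lengths, and each library left out. Scripts were tested on simulated data. Gene positions and lengths are from GENCODE on GRCm38, and promoters from RefSeq on GRCm38.p6, which held windows for 6 of the 10 genes.

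All 10 members were named, and so was *Sucnr1*. From each list the genes named were those with an unadjusted p below 0.05 for genotype or day, the largest change in either direction, and those not tested. The members and lists were chosen with earlier results of these data known. *Fgfr4*, *Klb*, *Hnf4a* in its profile, the cholangiocyte and enterocyte genes named, *Oat*, *Slc1a2*, *Cyp2e1* and the motifs were chosen after their values were seen.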

Additional observations from a re-analysis of the deposited data

How the results depend on the processing

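No gene of the 10 had an FDR below 0.05 under any of the 15 alternatives. The count of genes called for genotype was 0 under each of them except DESeq2 (7), which also called 220 genes for extraction day and 4 for the interaction. Genes called for day were 0 to 29 with each library left out (29 without *Sucnr1* fl/fl replicate 2). Genes with an unadjusted p below 0.05 for genotype fell from 562 to 94 with the index series as a further term and to 312 with day 2 alone, and were 312 to 832 with each library left out. Among the 10, those with such a p numbered 0 to 4 for genotype with each library left out, the 4 (*Cyp8b1*, *Cyp27a1*, *Cyp7b1* and *Baat*) without Hep-*Sucnr1* KO replicate 5, and 0 to 1 for day, the 1 being *Cyp7b1* without the same library.

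With each library left out the median log2 fold change over the 10 ran from -0.026 to 0.23, and the estimates ran from -0.34 to 0.77 for *Cyp7a1*, from -0.00165 to 0.40 for *Cyp27a1*, from -0.018 to 0.48 for *Cyp7b1*, from -0.084 to 0.0085 for *Nr1h4*, from -0.16 to 0.029 for *Slc10a1* and from -0.043 to 0.069 for *Abcb11*. The turns came without Hep-*Sucnr1* KO replicate 4 for the median, *Cyp7a1*, *Cyp27a1*, *Cyp7b1* and *Abcb11*, without *Sucnr1* fl/fl replicate 3 for *Cyp7a1*, without *Sucnr1* fl/fl replicate 2 for *Nr1h4* and *Abcb11*, without Hep-*Sucnr1* KO replicate 5 for *Nr1h4*, and without either day 1 library for *Slc10a1*. Signs also turned with the index series term for *Nr1h4* (0.074), *Slc27a5* (-0.10) and *Abcb11* (-0.072), with day 2 alone for *Slc10a1* (0.021), and for *Abcb11* with DESeq2 (-0.000704), DESeq2's size factors in edgeR (-0.000707) and library size alone (-0.0065). Differences in log2 ratio ran from -0.31 to 0.40 for *Cyp7a1* to *Cyp27a1*, from -0.13 to 0.33 for *Cyp8b1* to *Cyp7a1* and from -0.053 to 0.15 for *Cyp7b1* to *Cyp27a1* with each library left out, and with day 2 alone the first was -0.030 and the second -0.022. The cause was not tested.

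No paired analysis was possible. The genotypes share 1 replicate number only, and replicate 3 was extracted on day 2 in *Sucnr1* fl/fl but on day 1 in Hep-*Sucnr1* KO. Where a genotype or day kept 1 library, that library was assumed to vary like the others. Counting error was largest for *Cyp7a1* and *Nr0b2*, below the spread between libraries for both, and intervals of *Cyp7a1* and *Cyp8b1* allow a 2-fold change.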

Other observations

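*Slc10a2*, the apical sodium-dependent bile acid transporter known from ileum and cholangiocytes, was at 15.3, 10.9 and 11.4 CPM in *Sucnr1* fl/fl and at 16.3, 16.8 and 13.1 CPM in Hep-*Sucnr1* KO. Its log2 fold change was 0.31 ± 0.15 (SE), with an edgeR adjusted p = 0.998. Among cholangiocyte markers *Spp1* was at 266 to 526 CPM, *Sox9* at 83.1 to 122 CPM, *Pkhd1* at 2.45 to 4.01 CPM and *Epcam* at 0.620 to 2.61 CPM, while *Krt19*, *Krt7* and *Cftr* were under 1 CPM in each of the 6 libraries. Among enterocyte genes *Fabp2* was at 17.5 to 27.0 CPM, *Vil1* had 2 to 10 counts and *Fgf15* had no count listed. Whether the *Slc10a2* counts came from hepatocytes was not tested.

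*Slc51b* had at least 30 counts in each library, while its partner *Slc51a* had none listed.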
